A study of Homo sapiens with 9 samples.

Results

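The fibroblast growth factor (FGF) genes, their receptors and the inhibitors that ERK signalling induces were followed in TC-32, an established Ewing sarcoma line driven by the fusion EWSR1::FLI1. Members were taken by gene symbol alone. They were the 22 numbered FGF genes in the table, the receptors FGFR1 to FGFR4 and the decoy-like receptor FGFRL1. The 4 Sprouty genes, the 3 SPRED genes and the phosphatases DUSP4, DUSP5 and DUSP6 completed the set. This gave 37 genes of a table with 58381 rows. SPRY3 has 2 of those rows, for the X copy and the Y copy of its pseudoautosomal region.

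The 3 kinds of cell were compared, with 3 libraries each. RFP cells carried the lentiviral vector pLOC with a red fluorescent protein and served as controls. ETS1-Low and ETS1-High cells carried ETS1, an ETS family transcription factor, and ETS1-High was chosen to reach about the ETS1 level seen once EWSR1::FLI1 is depleted. All groups keep the fusion. The ETS1 cells were selected with puromycin and grown from sorted single cells, the number of clones per group is not given, and neither is whether the RFP cells were a clone. A difference between groups and a difference between clones therefore cannot be told apart, and p-values measure only the spread between these libraries, which may be technical. The study asked what ETS1 regulates while EWSR1::FLI1 is present.

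FGF ligands bind receptor tyrosine kinases on the cell surface together with heparan sulfate. The activated receptor recruits adaptor proteins, which switch on RAS and, through RAF and MEK, the kinase ERK. ERK in turn induces its own brakes: Sprouty and SPRED proteins act on the steps around RAS and RAF, and DUSP4, DUSP5 and DUSP6 remove phosphate from ERK itself. Transcripts of the feedback genes are often read as a sign of ERK activity, but ERK activity and proteins were not measured here.

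Total expected counts per library lay between 39484704 and 46654734. ETS1 stood at 1.81 to 2.15 CPM (the count scaled to a library size normalised by TMM) in the RFP libraries, at 10.3 to 10.9 CPM in ETS1-Low and at 18.2 to 19.7 CPM in ETS1-High. Its order followed the labels, with log2 fold changes of 3.26 (SE 0.08) (ETS1-High) and 2.40 (SE 0.09; ETS1-Low) against RFP. All 8 Ewing sarcoma markers were tested, and their summed level was 1063 to 1089.8 (RFP), 1365 to 1389.9 (ETS1-Low) and 1424 to 1463 CPM (ETS1-High). Markers of 4 other lineages (10 genes) summed to 2.11 to 2.56 (RFP), 4.66 to 5.25 (ETS1-Low) and 7.64 to 8.28 CPM (ETS1-High). Among them KRT5, a basal keratin, had means of 0.0208 (RFP), 0.857 (ETS1-Low) and 2.39 CPM (ETS1-High), and PECAM1, an endothelial marker, 1.70, 3.69 and 5.16 CPM. Both were called higher in each ETS1 group, but KRT5 passed the low-count filter through the ETS1 libraries alone, so it could only be higher than in RFP. DES, a muscle marker, had means of 0.304, 0.203 and 0.170 CPM in the same order and was not called. Other epithelial and endothelial markers were too low to be tested. EPCAM had means of 0.0690, 0.169 and 0.0372 CPM, CDH1 0.0278, 0.0515 and 0.0531 CPM, and CDH5 0.0840, 0.0495 and 0.123 CPM. CD3E was at 0 in all 9 libraries. MYOD1 was at 0 in both ETS1 groups and had at most 1 count in an RFP library. The part of these markers in the results below was not tested. In bulk RNA, fewer cells that express a gene and less RNA per cell cannot be told apart. The labels give no batch or date.

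The 4 stretches before a RefSeq start are shown because ETS factors bind DNA around a GGAA core and because these genes changed in opposite directions or in different steps. SPRY4 and DUSP6 were lowest in ETS1-High, SPRY2 was lower in both ETS1 groups, and FGF2 was higher in both. The bases come from the RefSeq promoter windows on GRCh38.p14, limited to the bases before the RefSeq start that lie outside the gene's own GENCODE v44 exons. They are written 5′ to 3′ on the gene's strand, and capitals mark each GGAA or its reverse complement TTCC. The SPRY4 stretch is chr5:142324418-142324497 (minus strand), which lies before the start of a shorter transcript and within an intron of longer SPRY4 transcripts in GENCODE, that of SPRY2 chr13:80341127-80341376 (minus), that of DUSP6 chr12:89352502-89352751 (minus), and that of FGF2 chr4:122826581-122826681 (plus).
SPRY4: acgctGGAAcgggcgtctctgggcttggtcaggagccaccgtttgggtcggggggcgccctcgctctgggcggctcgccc
SPRY2: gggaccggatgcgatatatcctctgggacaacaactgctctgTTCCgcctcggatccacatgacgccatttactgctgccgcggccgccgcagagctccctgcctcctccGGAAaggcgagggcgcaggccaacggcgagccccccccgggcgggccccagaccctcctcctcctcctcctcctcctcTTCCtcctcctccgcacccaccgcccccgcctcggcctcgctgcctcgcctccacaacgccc
DUSP6: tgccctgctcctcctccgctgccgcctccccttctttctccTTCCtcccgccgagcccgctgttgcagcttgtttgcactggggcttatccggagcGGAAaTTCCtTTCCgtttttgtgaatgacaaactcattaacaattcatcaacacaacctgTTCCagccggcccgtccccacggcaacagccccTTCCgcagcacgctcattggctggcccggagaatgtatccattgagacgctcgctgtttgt
FGF2: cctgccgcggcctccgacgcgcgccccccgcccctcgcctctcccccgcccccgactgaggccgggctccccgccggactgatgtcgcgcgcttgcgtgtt
The DUSP6 stretch holds 6 cores, with 3 of them close together, and the SPRY2 stretch 3, each in 250 bases. The SPRY4 and FGF2 stretches were shortened to 80 and 101 bases and hold 1 and 0, and their full windows of 250 bases hold 2 and 0. The DUSP6 stretch also overlaps an exon of an antisense transcript in GENCODE. Windows of 250 bases were found for 27 of the 37 members and for 18 of the 23 that were tested. FGF19, FGFR1, DUSP4, DUSP5 and FGF17 are the tested members without an entry. GGAA or TTCC is present in 92.7% of all 35116 such windows, with a median of 3. The longer core CCGGAA, which contains GGAA, was searched on both strands and found in 2 of the 39 windows of tested members (1 of SPRY1 and the SPRY2 window above), against 14.5% of all windows. GGAAGGAA, the start of a GGAA repeat, was found in the 2 copies of 1 SPRY3 window, against 3.06% of all windows. These matches are descriptions of letters, and binding was not measured in these libraries.

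Most tested members were lower in the ETS1 groups than in RFP, and FGF2 was the exception of the greatest size. A member was called at an adjusted p under 0.05 in edgeR's quasi-likelihood test with Benjamini-Hochberg adjustment over the 17235 rows tested. In ETS1-High against RFP, 20 of the 23 tested members were called, where 74.2% of all rows were called. Of these, 17 were lower and 3 (FGF2, FGFR4 and SPRED1) were higher, beside 37.2% of all rows lower and 37.0% higher. At 2-fold or more, 11 members were lower and 1 higher, beside 11.4% and 9.64% of all rows. Libraries of the groups did not overlap for 20 members, beside 75.5% of all rows. The median log2 fold change of the tested members was -0.80, and that of all rows was -0.01.

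In ETS1-Low against RFP, 22 of 23 were called, beside 74.1% of all rows. There 18 were lower and 4 (FGF2, FGFR4, SPRED1 and SPRED3) higher, beside 36.2% and 37.9%. At 2-fold or more, 11 members were called (20.6% of all rows), of which 10 were lower and 1 higher, beside 12.2% and 8.47%. The groups did not overlap for 22 members, beside 76.0% of all rows. The median was -0.59, beside 0.01 for all rows. Both comparisons use the same RFP libraries. FGF1 and FGF12 passed the low-count filter through the RFP libraries alone, so they could only be lower in the ETS1 groups, and the counts are given as a description.

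Between the ETS1 groups the differences were smaller. In ETS1-High against ETS1-Low, 17 of 23 members were called, beside 59.2% of all rows, a count that ran from 14 to 17 when each library was left out. Higher in ETS1-High were DUSP4, FGF19, FGFRL1, SPRY1, SPRY2 and SPRY3, that is 6 members beside 29.9% of all rows. The 11 lower members, beside 29.3% of rows, were DUSP5, DUSP6, FGF13, FGF2, FGFR1, FGFR2, FGFR4, SPRED1, SPRED2, SPRED3 and SPRY4. SPRY4 alone was called at 2-fold or more, beside 9.74% of all rows (6.05% higher, 3.69% lower). The ETS1 groups did not overlap for 18 members, beside 63.2% of all rows. Without the ETS1-Low replicate 3 library FGF19 (1.10) and SPRY3 (1.00) also reached 2-fold, which makes 3.

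**Figure D1:**
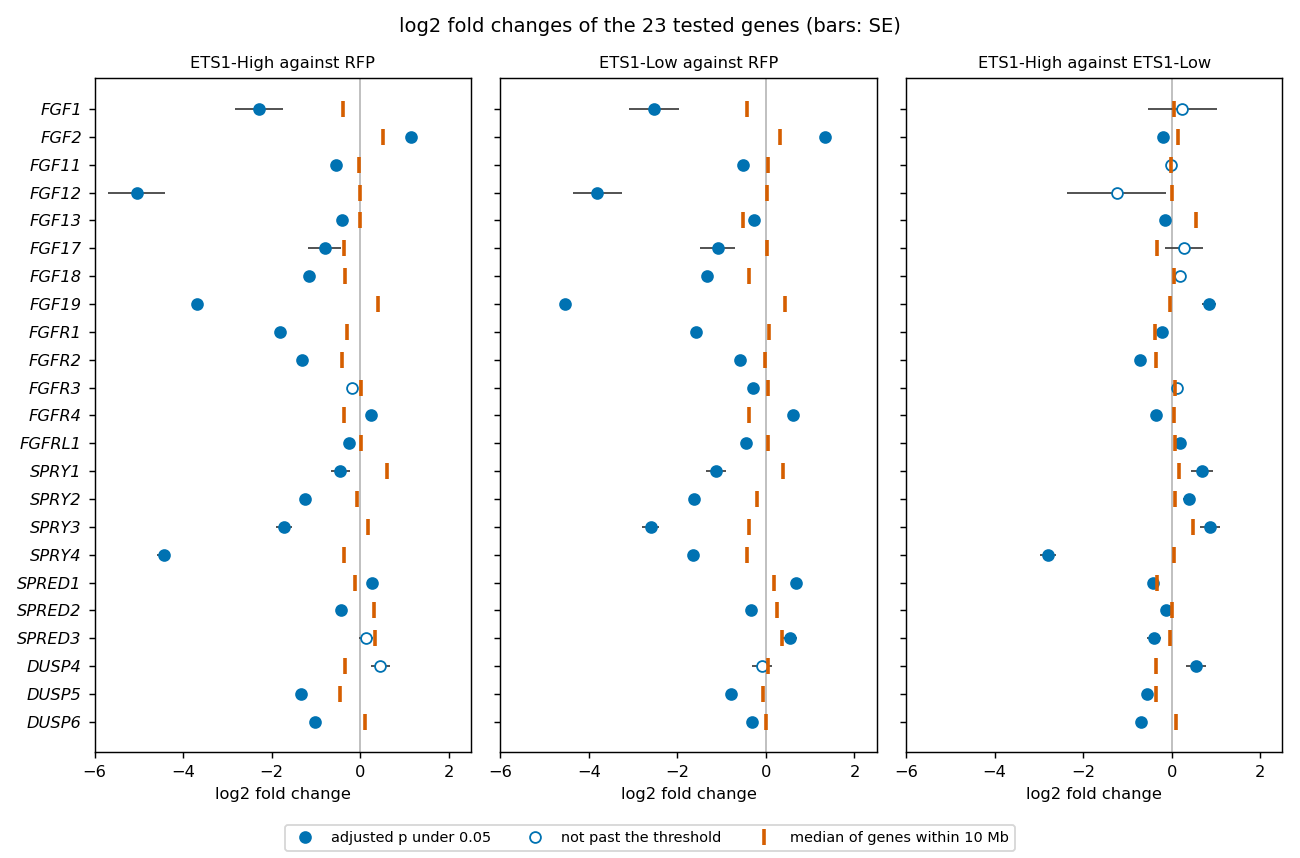
Log2 fold change of each tested member against RFP and between the ETS1 groups, with bars for the SE and a tick for the median of the genes within 10 Mb. Most points against RFP lie below 0, FGF2 lies at 1.15 and 1.34, and SPRY4 and FGF19 lie lowest of the genes with at least 20 counts on average.

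The receptor transcripts fell mainly through FGFR1. FGFR1 (ENSG00000077782.19; chromosome 8, 38400215 to 38468834, minus strand, GRCh38) is the receptor with the highest level per length in these cells. It stood at 297, 306 and 298 CPM in the RFP libraries, at 98.1, 101 and 101 CPM in ETS1-Low and at 86.2, 85.9 and 83.6 CPM in ETS1-High. The 3 groups did not overlap, and every ETS1 library was far below the RFP libraries. The log2 fold change was -1.82 (SE 0.03, adjusted p 2.2e-44) for ETS1-High and -1.58 (adjusted p 6.39e-42) for ETS1-Low against RFP. Between the ETS1 groups it was -0.23 (adjusted p 1.14e-08), a smaller fall than the median of -0.38 for the genes within 10 Mb.

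FGFR2 (ENSG00000066468.22; chromosome 10, 121478332 to 121598458, minus strand) encodes a second receptor of the family. Its levels were 79.2, 74.4 and 72.1 CPM in RFP, 48.1, 50.8 and 50.8 CPM in ETS1-Low and 31.2, 30.6 and 29.4 CPM in ETS1-High. The groups formed 3 separate steps without overlap. FGFR2 was lower by -0.59 on the log2 scale in ETS1-Low (adjusted p 7.22e-20) and by -1.31 in ETS1-High (adjusted p 2.74e-33) against RFP, and the step from ETS1-Low to ETS1-High was -0.72 (adjusted p 5.79e-21). The ETS1-High values stand in a region that was itself lower: the median of the genes within 10 Mb was -0.41 for ETS1-High and -0.02 for ETS1-Low. For FGFR1 these regional medians were -0.30 and 0.07.

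FGFR4, a receptor known for binding FGF19, went the other way. Its level was 11.5, 12.8 and 13.6 CPM in RFP, 18.5, 19.0 and 19.8 CPM in ETS1-Low and 14.3, 15.9 and 14.8 CPM in ETS1-High. ETS1-Low was highest and no libraries of different groups overlapped. The rise was 0.60 on the log2 scale in ETS1-Low (adjusted p 4.83e-12) and 0.25 in ETS1-High (adjusted p 0.00056), the latter not called on the FPKM values (0.04, adjusted p 0.611 with limma). FGFR3 had group means of 4.54 (RFP), 3.69 (ETS1-Low) and 4.02 CPM (ETS1-High). Its ETS1-Low value was called lower (-0.30, adjusted p 0.012), but not without RFP replicate 3 (adjusted p 0.0624) or ETS1-Low replicate 3 (adjusted p 0.0765). FGFRL1, which binds FGF but lacks a kinase domain, had means of 17.6, 12.8 and 14.7 CPM and was called lower in both ETS1 groups. Its higher value in ETS1-High than in ETS1-Low (0.19) was not called without ETS1-Low replicate 1 (adjusted p 0.053).

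Compared per length, with the deposited FPKM values, the 4 receptors together stood at 144 ± 2.89 FPKM in RFP, 57.5 ± 3.27 in ETS1-Low and 45.9 ± 1.58 in ETS1-High (SD, n = 3). FGFR1 made up 77.0% ± 0.675 of that sum in RFP, 57.7% ± 1.59 in ETS1-Low and 60.5% ± 0.628 in ETS1-High. The share of FGFR4 was 5.23% ± 0.293 in RFP, 15.8% ± 0.990 in ETS1-Low and 17.1% ± 2.10 in ETS1-High. FGFR2 held 16.7%, 24.4% and 19.7% and FGFR3 held 1.05%, 2.10% and 2.81% in the same order. The order of the receptors by mean FPKM was FGFR1, FGFR2, FGFR4 and FGFR3 in each group. FGFR2 and FGFR4 were closest in ETS1-High, at 9.04 ± 1.06 and 7.84 ± 0.960 FPKM. In ETS1-High replicate 3 FGFR4 (8.0 FPKM) lay above FGFR2 (7.91 FPKM).

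**Figure D2:**
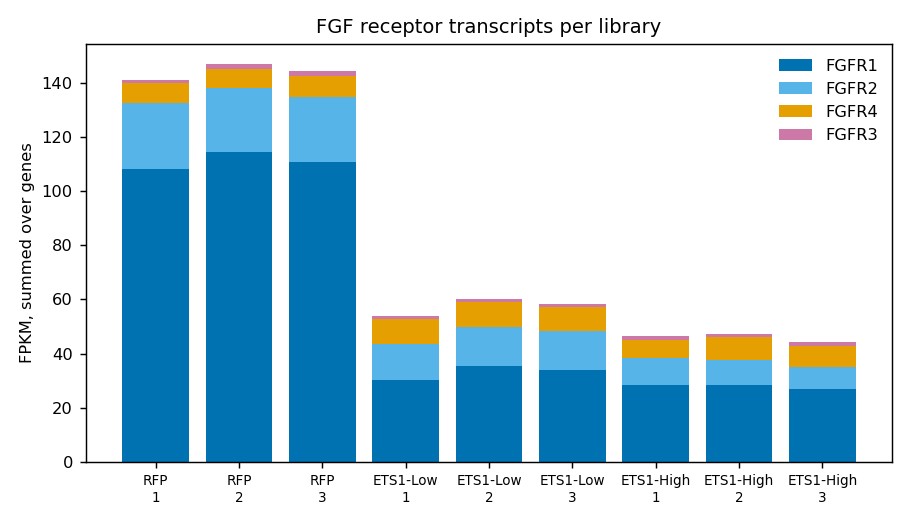
Deposited FPKM of FGFR1 to FGFR4, stacked for each of the 9 libraries. The RFP bars reach 141 to 147 FPKM, the ETS1-Low bars 53.9 to 60.2 and the ETS1-High bars 44.2 to 47.2, with FGFR1 as the main part of each.

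Among the ligands FGF19 fell the most of the well-measured genes. FGF19 (ENSG00000162344.3; chromosome 11, 69698238 to 69704022, minus strand) encodes a hormone-like ligand that works with the co-receptor beta-Klotho. It was measured at 22.0, 20.8 and 22.5 CPM in RFP, at 0.926, 0.667 and 1.25 CPM in ETS1-Low and at 1.78, 1.47 and 1.84 CPM in ETS1-High. The groups did not overlap, and ETS1-Low was the lowest. The log2 fold change against RFP was -4.53 (SE 0.11, adjusted p 9.43e-36) in ETS1-Low and -3.68 (SE 0.10, adjusted p 3.89e-34) in ETS1-High, and ETS1-High exceeded ETS1-Low by 0.85 (adjusted p 1.73e-05). KLB, which encodes beta-Klotho, did not pass the filter, with at most 1 count in a library.

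The neighbours of FGF19 differed among themselves. Against RFP, the genes within 10 Mb had medians of 0.44 for ETS1-Low and 0.40 for ETS1-High. LTO1, the nearest of those examined at 23 kb and chosen after its values were seen, rose from 24.7 ± 1.94 (RFP) to 33.6 ± 0.384 (ETS1-Low) and 34.5 ± 1.24 CPM (ETS1-High). CCND1, the cyclin D1 gene, ends 44 kb away on the same chromosome (69641156 to 69654474) and rose from 1548 ± 42.4 (RFP) to 2518 ± 20.3 (ETS1-Low) and 2498 ± 15.1 CPM (ETS1-High) (SD, n = 3). FGF4, the next ligand gene at 67 kb, was too low to be tested, and its counts were also lower in the ETS1 libraries. It had 16, 27 and 10 counts in RFP, 1, 0 and 1 in ETS1-Low and 0, 0 and 1 in ETS1-High. FGF3, at 106 kb, had at most 1 count in a library.

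FGF18 (ENSG00000156427.7; chromosome 5, 171419647 to 171457626) is a secreted ligand with roles in bone and cartilage. Its levels were 6.03, 6.40 and 6.21 CPM in RFP, 2.49, 2.47 and 2.44 CPM in ETS1-Low and 2.87, 2.83 and 2.69 CPM in ETS1-High. RFP lay above both ETS1 groups. The log2 fold change was -1.33 (adjusted p 6.58e-16) in ETS1-Low and -1.15 (adjusted p 3.85e-14) in ETS1-High, beside regional medians of -0.38 and -0.35. The ETS1 groups did not overlap, but their difference of 0.18 was not called (adjusted p 0.202).

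FGF2 (ENSG00000138685.14; chromosome 4, 122826682 to 122898236), basic FGF, is a broadly acting ligand that binds several receptors. Of the numbered FGF genes tested, it was the only one that rose. It stood at 15.3, 13.4 and 14.0 CPM in RFP, at 37.3, 37.3 and 33.7 CPM in ETS1-Low and at 32.6, 31.4 and 31.0 CPM in ETS1-High. Each ETS1 library was well above every RFP library. The rise was 1.34 on the log2 scale (adjusted p 1.46e-28) in ETS1-Low and 1.15 (adjusted p 1.08e-25) in ETS1-High, beside regional medians of 0.31 and 0.51. On the deposited FPKM values the rise was smaller and stayed under 2-fold, with means of 3.00 (RFP), 5.71 (ETS1-Low) and 4.82 FPKM (ETS1-High). NUDT6 overlaps FGF2 on the opposite strand, and whether counting used strand is not given. NUDT6 had means of 3.19 (RFP), 3.44 (ETS1-Low) and 2.79 CPM (ETS1-High).

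FGF11, FGF12 and FGF13 encode intracellular FGF-like proteins that bind sodium channels and are not classical receptor ligands. FGF13 had the highest CPM of all FGF genes here, with means of 127 (RFP), 106 (ETS1-Low) and 94.9 CPM (ETS1-High). It was called lower in all 3 comparisons, by -0.26 in ETS1-Low and -0.42 in ETS1-High against RFP and -0.16 between the ETS1 groups. The regional medians were -0.52, -0.01 and 0.55 in the same order, so in ETS1-Low FGF13 fell less than its region. FGF11 had means of 14.1, 9.81 and 9.65 CPM and was lower in both ETS1 groups (-0.52 and -0.54). Counts of FGF11 and FGF13 are in part divided between overlapping genes and are less certain. FGF12 and FGF1 passed the filter through the RFP libraries alone, so their ratios and intervals describe the counts and test nothing. FGF12 had 87 counts over the RFP libraries, 5 over ETS1-Low and 2 over ETS1-High. The ratio of RFP to ETS1-High was 39.0 (95% exact binomial interval 10.5 to 327) and that of RFP to ETS1-Low 15.0 (6.18 to 47.3), for counting error only. FGF1, an acidic FGF that binds all receptors, had 56 counts over RFP and 10 over ETS1-High, a ratio of 5.02 (2.54 to 11.0). Over ETS1-Low it had 8 counts, a ratio of 6.02 (2.86 to 14.6), and its log2 fold change there (-2.53) became -3.90 without ETS1-Low replicate 1 and -1.90 without replicate 2. FGF17 had means of 0.515, 0.237 and 0.291 CPM. Its lower value in ETS1-High (-0.80, adjusted p 0.0463) was lost without RFP replicate 1 or 2, ETS1-Low replicate 1, or ETS1-High replicate 1 or 3, with adjusted p from 0.0557 to 0.18, and in DESeq2 (adjusted p 0.117). That in ETS1-Low (-1.09) was lost without ETS1-Low replicate 3 (-0.66, adjusted p 0.131) and became -1.73 without replicate 2.

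The other 14 numbered FGF genes did not pass the filter. FGF5, FGF6, FGF10, FGF16 and FGF20 had 0 counts in every library, which allows up to 0.0615 to 0.0793 CPM per library (3 counts, counting error only). FGF3, FGF4, FGF7, FGF8, FGF9, FGF14, FGF21, FGF22 and FGF23 had some counts, with 27 as the highest. FGF9 had 4, 6 and 4 counts in RFP and 0 in each ETS1 library, and FGF14 had 7, 4 and 3 in RFP and at most 1 in any ETS1 library.

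**Figure D3:**
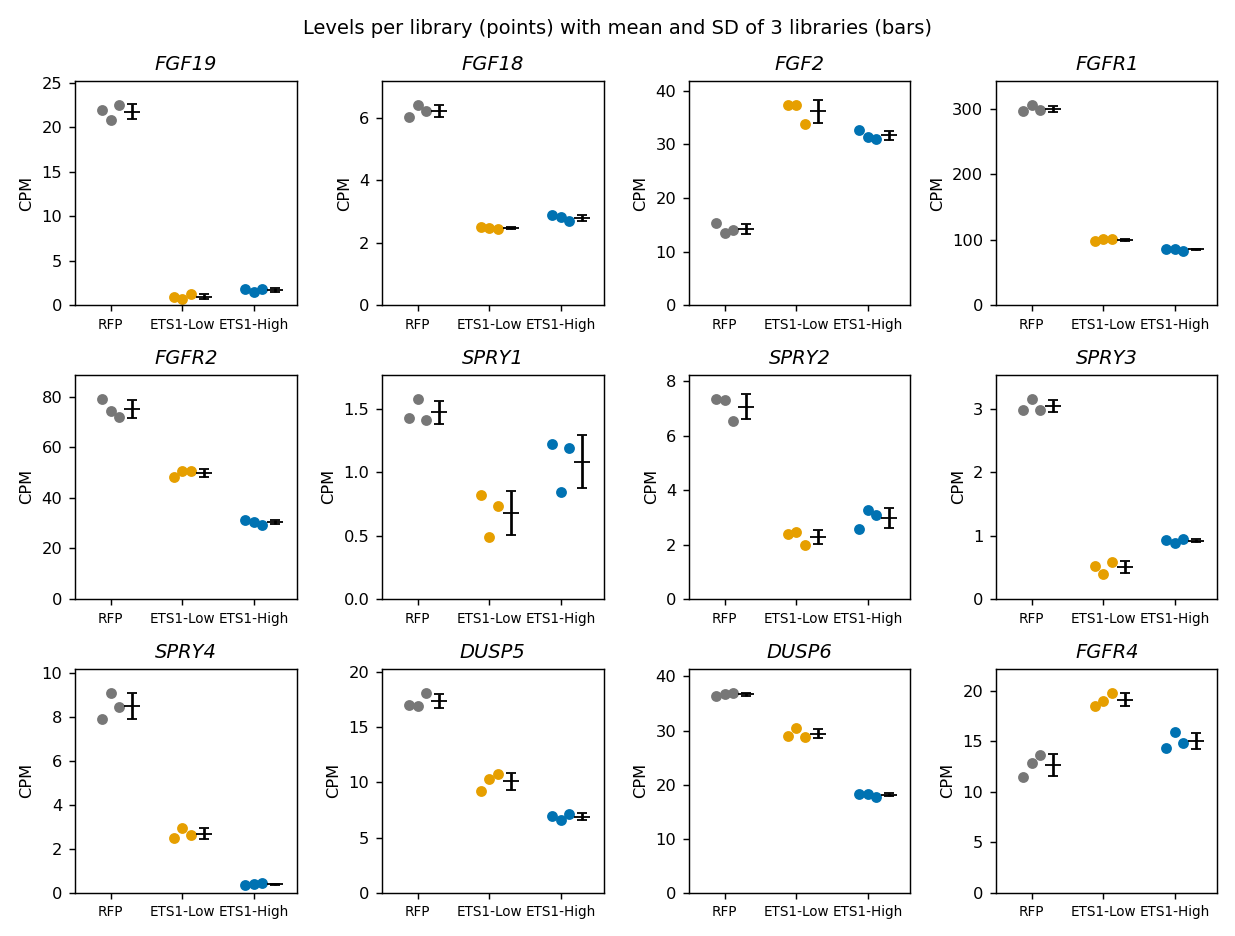
CPM of FGF19, FGF18, FGF2, FGFR1, FGFR2, SPRY1 to SPRY4, DUSP5, DUSP6 and FGFR4 in each library (points) with the mean and SD of the 3 libraries of a group (bars). SPRY4 and DUSP6 step down from RFP to ETS1-Low to ETS1-High, while SPRY1, SPRY2, SPRY3 and FGF19 are lowest in ETS1-Low.

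All 4 Sprouty genes were lower in both ETS1 groups than in RFP, and SPRY4 differed most between them. SPRY4 (ENSG00000187678.9; chromosome 5, 142310427 to 142326455, minus strand) encodes an ERK-induced inhibitor that acts upstream of RAF. It stood at 7.88, 9.09 and 8.46 CPM in RFP, at 2.49, 2.96 and 2.61 CPM in ETS1-Low and at 0.355, 0.378 and 0.425 CPM in ETS1-High. The groups formed 3 separate levels. The log2 fold change was -1.65 (SE 0.11, adjusted p 1.27e-19) in ETS1-Low and -4.44 (SE 0.15, adjusted p 3.02e-31) in ETS1-High against RFP. The step from ETS1-Low to ETS1-High was -2.79 (SE 0.18, adjusted p 3.41e-19), which is 6.91-fold. Genes within 10 Mb had medians of -0.42, -0.37 and 0.04 in these comparisons.

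SPRY2 (ENSG00000136158.11; chromosome 13, 80335976 to 80341126, minus strand), a broadly expressed inhibitor of receptor tyrosine kinase signalling, fell without that second step. Its levels were 7.36, 7.30 and 6.54 CPM in RFP, 2.38, 2.47 and 1.98 CPM in ETS1-Low and 2.56, 3.29 and 3.09 CPM in ETS1-High. Both ETS1 groups lay below RFP, by -1.63 (adjusted p 2.49e-18) in ETS1-Low and -1.24 (adjusted p 8.21e-15) in ETS1-High. The ETS1-High libraries were just above those of ETS1-Low (0.39, adjusted p 0.00663), which was not called without ETS1-Low replicate 3 (0.30, adjusted p 0.0622) or ETS1-High replicate 2 (0.32, adjusted p 0.0561).

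SPRY3 (ENSG00000168939.11; chromosome X, 155612572 to 155782459) was counted in 2 rows that hold the same values, so its X row carries its reads in part only. That row gave 2.99, 3.16 and 2.99 CPM in RFP, 0.529, 0.400 and 0.586 CPM in ETS1-Low and 0.939, 0.890 and 0.940 CPM in ETS1-High. ETS1-Low was lowest and the groups did not overlap. The log2 fold change was -2.60 (adjusted p 2.97e-17) in ETS1-Low and -1.72 (adjusted p 7.98e-13) in ETS1-High, beside regional medians of -0.38 and 0.17. ETS1-High exceeded ETS1-Low by 0.87 (adjusted p 0.000867), in a region whose median was itself higher by 0.49. TMLHE overlaps SPRY3 on the opposite strand and had means of 22.5, 16.9 and 23.8 CPM.

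SPRY1 (ENSG00000164056.10; chromosome 4, 123396795 to 123403760), known as a brake on growth factor signalling in kidney development, was the lowest Sprouty gene in RFP by CPM. It was measured at 1.43, 1.58 and 1.41 CPM in RFP, 0.820, 0.489 and 0.732 CPM in ETS1-Low and 1.22, 0.845 and 1.19 CPM in ETS1-High. It was lower in ETS1-Low (-1.13, adjusted p 1.5e-05), beside a regional median of 0.38. In ETS1-High the value was -0.45 (adjusted p 0.0481), a call lost without ETS1-High replicate 2 (-0.29, adjusted p 0.241) or any RFP library (adjusted p 0.0693 to 0.123) and in DESeq2 (adjusted p 0.103). ETS1-High exceeded ETS1-Low by 0.68 (adjusted p 0.0119), which was not called without ETS1-Low replicate 2 (0.48, adjusted p 0.109), ETS1-High replicate 1 (adjusted p 0.0509) or ETS1-High replicate 3 (adjusted p 0.0507).

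The SPRED genes, which bring the RAS inhibitor neurofibromin to the membrane, did not move together. SPRED1 was measured at 25.6, 24.7 and 24.4 CPM in RFP, 42.7, 38.0 and 39.2 CPM in ETS1-Low and 30.8, 27.8 and 31.0 CPM in ETS1-High. It rose by 0.68 in ETS1-Low (adjusted p 4.1e-18) and by 0.26 in ETS1-High (adjusted p 3.29e-06), the latter not called on FPKM (0.07, adjusted p 0.564 with limma). SPRED2 fell from a mean of 44.6 CPM (RFP) to 35.6 in ETS1-Low (-0.33, adjusted p 2.91e-10) and 32.8 in ETS1-High (-0.44, adjusted p 2.34e-14). Its further step between the ETS1 groups (-0.12, adjusted p 0.0111) was not called without ETS1-Low replicate 2 (adjusted p 0.0513) or ETS1-High replicate 3 (adjusted p 0.0797). SPRED3 had means of 1.71, 2.49 and 1.88 CPM and was higher in ETS1-Low (0.54, adjusted p 0.0013), a direction that turned on unfiltered FPKM values (-0.02). Its lower value in ETS1-High than ETS1-Low was not called without ETS1-Low replicate 3 (adjusted p 0.0515) or ETS1-High replicate 2 (adjusted p 0.077).

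Of the ERK phosphatases, DUSP6 and DUSP5 stepped down and DUSP4 did not. DUSP6 (ENSG00000139318.7; chromosome 12, 89347235 to 89352501, minus strand) encodes the cytoplasmic phosphatase of ERK. It was measured at 36.4, 36.7 and 37.0 CPM in RFP, 29.0, 30.4 and 28.8 CPM in ETS1-Low and 18.2, 18.3 and 17.8 CPM in ETS1-High. The groups were separate, with little spread in each. The log2 fold change was -0.32 (adjusted p 3.62e-09) in ETS1-Low and -1.02 (adjusted p 3.68e-26) in ETS1-High against RFP, and -0.70 (adjusted p 1.34e-18) between the ETS1 groups. The genes around it had medians of -0.01, 0.12 and 0.09.

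DUSP5 (ENSG00000138166.5; chromosome 10, 110497907 to 110511533), a nuclear phosphatase of ERK, was measured at 17.0, 16.9 and 18.1 CPM in RFP, 9.23, 10.3 and 10.7 CPM in ETS1-Low and 6.93, 6.54 and 7.17 CPM in ETS1-High. No libraries of different groups overlapped. It was lower by -0.78 (adjusted p 6.82e-15) in ETS1-Low and -1.33 (adjusted p 7.58e-23) in ETS1-High, beside regional medians of -0.07 and -0.45. DUSP4, another nuclear phosphatase, was low, with means of 0.955, 0.888 and 1.31 CPM, and the ETS1-High and RFP libraries overlapped. Its value against RFP was 0.46 (adjusted p 0.0548) in ETS1-High, which was called without RFP replicate 2 (0.66, adjusted p 0.0142), and -0.09 (adjusted p 0.721) in ETS1-Low. Its higher value in ETS1-High than in ETS1-Low (0.55, adjusted p 0.0314) was not called without ETS1-Low replicate 1 or 3 or ETS1-High replicate 1 or 2 (adjusted p 0.053 to 0.14).

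The steps outside the module were read from 5 lists of pathway genes. Their counts are to be read beside the shares of all rows called against RFP, which were 37.0% higher and 37.2% lower in ETS1-High and 37.9% higher and 36.2% lower in ETS1-Low. The RAS to ERK core changed little in size: of its 14 genes, 6 rose and 4 fell in ETS1-High and 7 rose and 4 fell in ETS1-Low, with 0 at 2-fold in either. These 10 and 11 calls are near the background of 74.2% and 74.1%. At 2-fold or more, 21.0% of all rows were called in ETS1-High and 20.6% in ETS1-Low. HRAS, 1 of the RAS genes, rose from 21.0 ± 0.713 (RFP) to 34.0 ± 0.825 (ETS1-Low) and 34.3 ± 0.877 CPM (ETS1-High). MAP2K2, which encodes the ERK kinase MEK2, rose from 92.9 ± 1.83 to 129 ± 1.88 and 119 ± 2.23 CPM. The median log2 fold change over the list was 0.01 in ETS1-High and 0.08 in ETS1-Low.

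Of 10 receptor adaptors, 6 rose in each ETS1 group, and 1 fell in ETS1-High and 4 in ETS1-Low, beside backgrounds of 37.0% and 37.9% higher and 37.2% and 36.2% lower. GAB1, a docking protein for signalling by receptor kinases, rose from 9.53 ± 0.424 (RFP) to 26.1 ± 0.327 (ETS1-Low) and 27.9 ± 0.485 CPM (ETS1-High). SHC1, an adaptor toward RAS, rose from 234 ± 7.13 to 292 ± 4.61 and 308 ± 2.96 CPM. PLCG1, a phospholipase that binds active receptors, fell from 234 ± 4.64 to 158 ± 3.33 and 164 ± 1.74 CPM. FRS2, the main FGF receptor docking protein, was chosen outside the naming rule, after its values were seen, for that role: it had means of 38.5, 35.1 and 37.7 CPM, with a call in ETS1-Low (-0.13, adjusted p 0.00249) and none in ETS1-High (-0.03, adjusted p 0.472).

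Of 27 co-receptor and heparan sulfate genes, 20 were tested: 8 rose and 10 fell in ETS1-High, and 11 rose and 7 fell in ETS1-Low, beside backgrounds of 37.0% higher and 37.2% lower, and 37.9% higher and 36.2% lower. At 2-fold or more, 2 rose and 3 fell in ETS1-High, beside 9.64% and 11.4% of all rows. The 3 genes of lowest p rose. EXT1, which builds heparan sulfate chains, rose from 40.7 ± 1.25 (RFP) to 111 ± 1.40 (ETS1-Low) and 105 ± 1.36 CPM (ETS1-High). NDST4, a heparan sulfate sulfotransferase, rose: its libraries lay at 4.11 to 4.34 (RFP), 17.0 to 17.5 (ETS1-Low) and 19.5 to 20.7 CPM (ETS1-High). SDC2, the carrier protein syndecan 2, rose from 100.3 ± 2.43 to 142 ± 1.49 and 179 ± 3.35 CPM. The genes that fell at 2-fold in ETS1-High, named after their values were seen, were NDST3, SDC1 and GPC2. SDC1 (syndecan 1) had means of 6.28 (RFP), 6.18 (ETS1-Low) and 1.34 CPM (ETS1-High), GPC2 (glypican 2) 16.8, 4.25 and 6.99 CPM, and NDST3 2.27, 0 and 0.127 CPM. NDST3 passed the low-count filter through the RFP libraries alone, so it could only be lower, and its fall is a description. SULF1 and SULF2, which trim sulfate from heparan sulfate, were also picked after their values were seen. They went opposite ways in ETS1-Low. SULF2 had means of 11.0 (RFP), 0.569 (ETS1-Low) and 11.7 CPM (ETS1-High), and SULF1 6.74, 26.6 and 7.61 CPM.

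The 13 other feedback genes and FGF modulators split. In ETS1-High 7 rose and 5 fell, and in ETS1-Low 7 rose and 4 fell, with medians of 0.62 and 0.43, beside 74.2% and 74.1% of all rows called. The falls include FLRT1, with means of 0.389 (RFP), 0.106 (ETS1-Low) and 0.0605 CPM (ETS1-High). It passed the low-count filter through the RFP libraries alone, so it could only be lower. DUSP8 and DUSP10, phosphatases that act mainly on the stress kinases JNK and p38, rose. DUSP10 went from 3.25 ± 0.162 (RFP) to 6.76 ± 0.0579 (ETS1-Low) and 18.2 ± 0.191 CPM (ETS1-High), and DUSP8 from 1.74 ± 0.109 to 4.35 ± 0.287 and 9.93 ± 0.0105 CPM. FLRT2, a membrane protein of a family that interacts with FGF receptors, rose from 29.3 ± 1.92 to 74.6 ± 0.567 and 189 ± 2.14 CPM. These 3 genes were highest in ETS1-High, and DUSP6, SPRY4 and DUSP5 were lowest there. The list's remaining DUSP genes, named after their values were seen, varied. DUSP2 had means of 0.258 (RFP), 1.71 (ETS1-Low) and 1.34 CPM (ETS1-High), and DUSP9 0.776, 1.97 and 1.20 CPM. Both had their highest mean in ETS1-Low. DUSP16 had 22.5, 30.3 and 21.0 CPM, DUSP7 24.6, 23.7 and 24.2 CPM, and DUSP1 15.5, 7.86 and 11.2 CPM.

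Of 17 ERK response genes, 7 rose and 7 fell in ETS1-High, and 11 rose and 5 fell in ETS1-Low, beside backgrounds of 37.0% higher and 37.2% lower, and 37.9% higher and 36.2% lower. The medians were 0.05 and 0.51, beside -0.01 and 0.01 for all rows. Between the ETS1 groups 3 were higher and 12 lower in ETS1-High (29.9% and 29.3% of all rows), with a median of -0.55 beside -0.00 for all rows. IER3, an immediate early gene, rose from 15.9 ± 0.513 (RFP) to 32.7 ± 0.462 (ETS1-Low) and 100.1 ± 6.14 CPM (ETS1-High). EPHA2, an ephrin receptor gene, fell from 109 ± 1.60 to 54.2 ± 2.09 and 34.7 ± 0.928 CPM. ETV4 and ETV5, ETS genes that FGF signalling induces in many tissues, were picked after their values were seen. ETV4 had means of 0.537 (RFP), 2.47 (ETS1-Low) and 0.149 CPM (ETS1-High), and so was highest in ETS1-Low (2.20, adjusted p 4.25e-13) and lowest in ETS1-High (-1.84, adjusted p 3.59e-06). ETV5 had 1.76, 1.33 and 0.546 CPM and was called lower in ETS1-High (-1.69, adjusted p 1.08e-09), not in ETS1-Low (-0.40, adjusted p 0.0534). ETV1, EGR1, EGR2 and FOSL1 were also picked after their values were seen. ETV1 was more abundant, with 39.9, 44.8 and 30.6 CPM. EGR1 (24.9, 63.8 and 34.5 CPM), EGR2 (0.924, 7.08 and 4.21 CPM) and FOSL1 (4.90, 13.7 and 7.42 CPM) were called higher in both ETS1 groups.

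**Figure D4:**
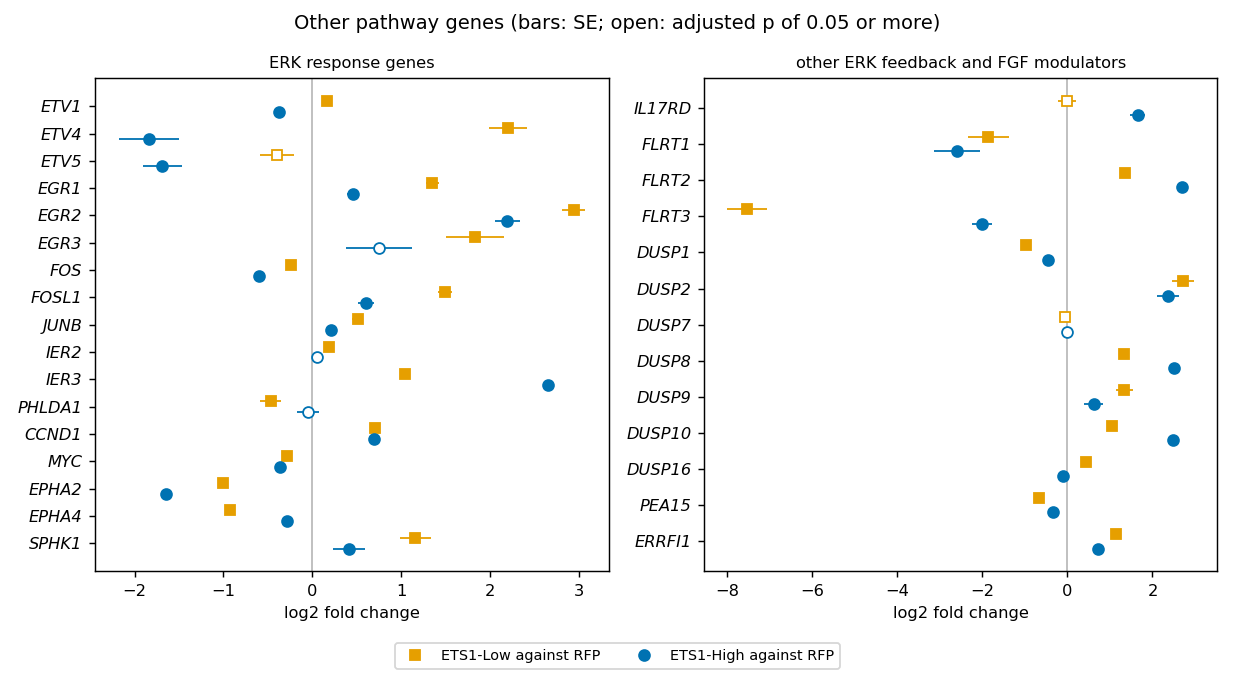
Log2 fold change against RFP of the ERK response genes (left) and of the other feedback and modulator genes (right), with bars for the SE and open symbols for values not called. ETV4 lies at 2.20 in ETS1-Low and at -1.84 in ETS1-High, and the value of FLRT3 in ETS1-Low rests on a group near 0 counts and depends on the fit's prior.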

How the data were processed

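The authors deposited expected counts per gene and FPKM values, both made with RSEM per the file headers. The submitters' processing notes also name cutadapt 4.4, STAR 2.7.3, featureCounts (Subread 2.0.3), limma 3.38.3 and GRCh38, without roles; the annotation release is not given in the sources used here, nor is the use of strand. In each library 9.00% to 10.3% of the counts had a fraction, from reads divided between genes. Expected counts were rounded and fitted with edgeR 4.0.16 (R 4.3.3): TMM, filterByExpr by group (17235 of 58381 rows), 1 quasi-likelihood fit of all 9 libraries with group only, 3 comparisons, Benjamini-Hochberg over all rows tested, calls at adjusted p under 0.05. SPRY3 was fitted as deposited and counted once. SE is the log2 fold change divided by the square root of F. The deposited FPKM values served to compare receptors per length and, with limma 3.58.1 on log2(FPKM + 1) or log2(FPKM + 0.1), as an alternative.

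Replicate libraries differed by more than sampling noise (chi-square per gene 2.66 to 5.19 over 9 pairs), and each was counted. Positions came from GENCODE v44 on GRCh38 by identifier, for 99.2% of tested rows. Regional medians used tested genes with a mean log2 CPM above 1 within 10 Mb, at least 20 of them, the member left out. The members and lists were chosen with earlier results of these data known. Values in every library were given for members that average 20 counts or more and are called at 2-fold or more, for FGFR1, and for FGFR4 and SPRED1, which were added afterwards. The 3 genes of lowest p in ETS1-High were named from each pathway list, and exceptions are marked in the text. Some values that these choices covered are not reported here. No sample column was left unused (0). The method was tested on simulated data. Alternatives were DESeq2 1.42.0, other size factors, other filters, a replicate block, pairwise fits and leaving out each library.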

Additional observations from a re-analysis of the deposited data

How the results depend on the processing

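Over the single-gene values and all alternatives, 1328 of 1390 kept their direction and side of the threshold, 57 lost a call, 4 gained one and 1 turned. That was SPRED3 in ETS1-Low against RFP on unfiltered log2(FPKM + 1), at -0.02; the cause was not tested. Filtered FPKM tests 15 members only. In ETS1-High against RFP it called 12 members (1 higher, 11 lower) with either pseudocount, 4 of them at 2-fold with a pseudocount of 1 and 7 with 0.1, and without a filter it called 1 higher and 5 at 2-fold. In ETS1-Low against RFP it called 14 (11 lower, 4 at 2-fold) with either pseudocount, and 4 at 2-fold without a filter. In ETS1-High against ETS1-Low it called 11 (3 higher, 0 at 2-fold) with either pseudocount, and 9 (3 higher, 6 lower, 0 at 2-fold) without a filter. The log2(FPKM + pseudocount) scale understates changes of low genes. FGFR4 and SPRED1 in ETS1-High against RFP differed between counts and FPKM with either pseudocount. FGFR4 was at 0.25 on counts and at 0.04 (pseudocount 1) and 0.05 (0.1) on FPKM. SPRED1 was at 0.26, 0.07 and 0.08 in the same order, and the reason was not tested.

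Leaving out each library gave 18 to 21 calls in ETS1-High against RFP (15 to 18 lower), 21 to 23 in ETS1-Low against RFP and 14 to 17 in ETS1-High against ETS1-Low, where 1 to 3 were at 2-fold. With the replicate block 18, 22 and 17 members were called in these comparisons, and FGF17 and SPRY1 lost their call in ETS1-High against RFP. Libraries that share a number correlated in their deviations from the group means at -0.0933 to 0.112, and not every library correlated best with its own number, so the numbers are not taken as pairs. Scaling by total counts alone, chosen after seeing the data, moved the median of all rows to -0.11 and -0.12 against RFP and the share of calls that were higher from 49.8% to 40.6% for ETS1-High and from 51.2% to 39.2% for ETS1-Low. It left 3 higher and 18 lower members called in ETS1-High and 4 and 18 in ETS1-Low. Members under 1 CPM are limited by depth, as the intervals for FGF12 and FGF1 show.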
